A study of Rattus norvegicus with 4 samples.

Results

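The integrin-linked kinase (ILK) complex and the integrin to which it attaches in heart muscle were followed in RNA of neonatal rat ventricular myocytes. The 10 genes are Ilk, Lims1, Lims2, Parva, Parvb, Itga7, Itgb1, Itgb1bp2, Fermt2 and Tln2, taken by gene symbol from the 18699 genes of the expression table, with Lims2 set beside its paralogue Lims1. They were chosen by function and with their fold changes of carfilzomib over vehicle already seen. Their values in that comparison are therefore a description, and no p-value is attached to them. The carfilzomib group holds 2 libraries from cells given 1 µM of the drug for 24 h, and the vehicle group holds 2 libraries from cells given the vehicle. Carfilzomib is an irreversible proteasome inhibitor used against multiple myeloma. All cells were wild-type primary ventricular cells of Sprague Dawley rats 1 to 3 days old, cultured ex vivo with serum and 0.1 mM bromodeoxyuridine, which holds back dividing cells other than myocytes. The study addressed how the drug harms heart cells.

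Integrins are receptors made of an alpha and a beta subunit that bind matrix proteins outside the cell. In striated muscle the pair of alpha 7 and beta 1 binds laminin, and it sits at costameres, the ribs that tie the Z-discs of the outer myofibrils to the membrane. Talin and kindlin bind the tail of the beta subunit, and ILK, PINCH and parvin form a complex that joins that tail to actin. Melusin, the product of Itgb1bp2, is a muscle-specific chaperone-like protein that binds the same tail and is known in mice to protect the heart under pressure load.

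Totals were 18884333 and 18655450 counts in the carfilzomib libraries and 18757722 and 18736027 in the vehicle libraries. Of 14519 genes tested, edgeR's quasi-likelihood test called 60.7% at a Benjamini-Hochberg adjusted p under 0.05, 30.6% higher and 30.1% lower with carfilzomib. Nothing in the labels ties a library to its own culture or litter, so p-values take in no more than library-to-library spread, part or all of which may be technical. Markers of the labelled cell type were present in every library: 11 cardiomyocyte markers, among them Myh6, Tnnt2 and Actn2, summed to 5976 and 5760 CPM with carfilzomib and 28476 and 28321 CPM with vehicle (CPM are read counts scaled to library size, TMM-normalised). All 11 were called lower. Other cells were present too. The 9 fibroblast markers summed to 15727 and 15007 CPM with carfilzomib and 27980 and 28517 CPM with vehicle, and all were called lower, as were all 7 smooth muscle markers, at 1466 and 1430 CPM against 4034 and 4189 CPM. The 8 endothelial markers summed to 95.1 and 92.0 CPM with carfilzomib and 88.0 and 88.6 CPM with vehicle, with 2 called higher and 2 lower. The 8 macrophage markers summed to 28.2 and 26.3 CPM with carfilzomib and 73.5 and 76.1 CPM with vehicle, with all 5 tested called lower. Cd163 was nearly absent from both groups, at 0 CPM in both carfilzomib libraries and 0.05 CPM in both vehicle libraries, and was not tested. In bulk RNA fewer cells of a type and less RNA per cell cannot be told apart, and the part of the cell mixture in the values below was not tested.

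Lims2 and Itgb1bp2 stood far apart from the other 8 genes. Lims2 (gene ID 361303), which encodes PINCH2, was 9.77-fold lower with carfilzomib, and Itgb1bp2 (gene ID 317258), which encodes melusin, was 8.56-fold lower. Next came Tln2, 1.84-fold lower, and Itga7, 1.52-fold lower. Ilk, Parva and Itgb1 lay between 1.14-fold and 1.16-fold lower, Lims1 and Fermt2 had values 1.07-fold and 1.06-fold lower that did not pass the threshold, and Parvb was 1.14-fold higher. The median log2 fold change of the 10 genes was -0.20, beside 0.00 over all genes tested. All 10 passed the filter on low counts, 7 were called lower and 1 higher, that is 80.0% beside 60.7% of all tested genes. For each of the 10, the carfilzomib and vehicle libraries did not overlap, as was so for 79.9% of all tested genes. Lims2 and Itgb1bp2 ranked 23 and 33 from the lowest log2 fold change among the 14519, and 1.23% of tested genes were called and at least 4-fold lower. The authors' deposited table lists 8 of the 10, all but Lims1 and Fermt2, with a log2 fold change of -3.28 for Lims2 and -3.09 for Itgb1bp2.

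**Figure D1:**
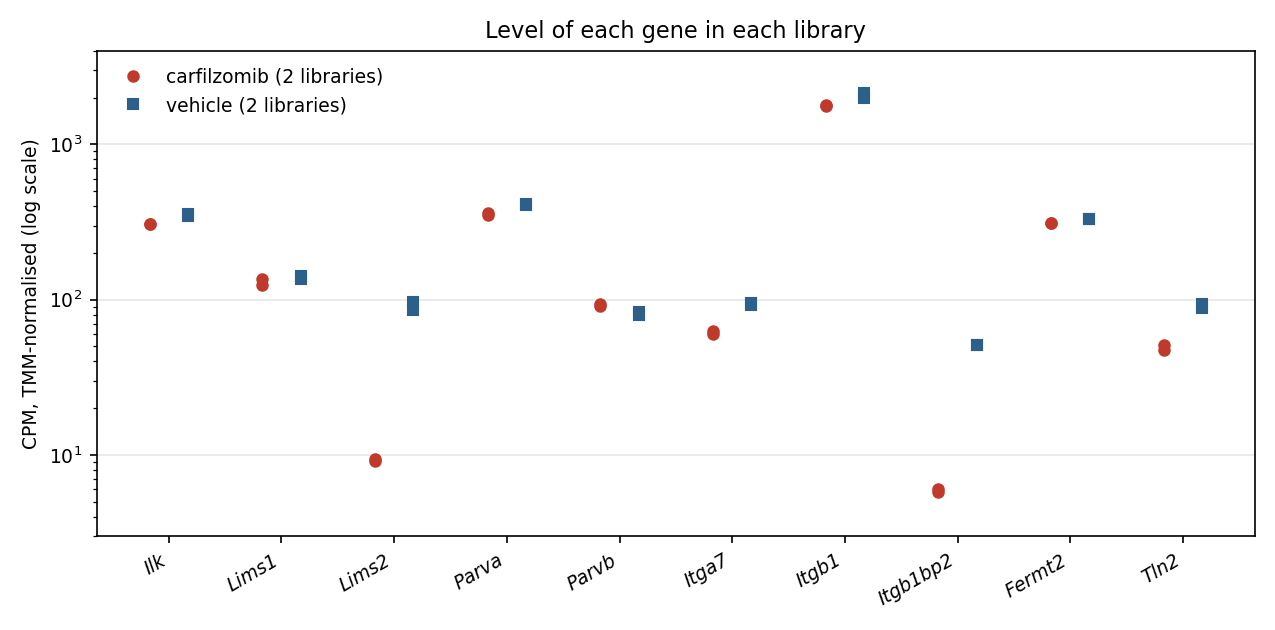
TMM-normalised CPM of each gene in the 2 carfilzomib libraries (circles) and the 2 vehicle libraries (squares), on a log axis. Lims2 and Itgb1bp2 drop below 10 CPM with carfilzomib while Lims1, Ilk, Parva, Itgb1 and Fermt2 stay close to their vehicle level.

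PINCH proteins are adaptors of LIM domains that bind ILK, and their 2 genes parted. Lims2 had 9.49 and 9.11 CPM in the carfilzomib libraries and 85.5 and 96.3 CPM in the vehicle libraries. Its log2 fold change was -3.29 ± 0.08 (SE), on 181 and 172 reads with carfilzomib and 1588 and 1779 with vehicle. Lims1 (gene ID 499443), which encodes PINCH1, had 124 and 136 CPM with carfilzomib and 142 and 136 CPM with vehicle, a log2 fold change of -0.10 ± 0.05 (SE) that did not pass the threshold. The highest carfilzomib library of Lims1 lay just under the lowest vehicle library, whereas every carfilzomib library of Lims2 was far under both vehicle libraries. Neither gene had a fractional count, that is a deposited count with decimals, which can arise where reads are shared out between genes. Per length, on the deposited FPKM scale (fragments per length of gene and size of library), Lims2 was at 5.36 and 5.08 with carfilzomib and 45.9 and 52.2 with vehicle, and Lims1 at 26.8 and 29.7 with carfilzomib and 29.6 and 28.2 with vehicle. Lims2 thus made up 16.7% and 14.6% of the PINCH FPKM in the carfilzomib libraries and 60.8% and 64.9% in the vehicle libraries. On this scale the larger PINCH gene was Lims1 with carfilzomib and Lims2 with vehicle. In CPM, which are not per length, Lims1 was the larger in both groups. The PINCH sum was 32.1 and 34.8 FPKM with carfilzomib and 75.6 and 80.4 FPKM with vehicle.

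Melusin RNA followed the same course as that of PINCH2. Itgb1bp2 had 5.82 and 6.04 CPM in the carfilzomib libraries and 50.79 and 50.77 CPM in the vehicle libraries, a log2 fold change of -3.10 ± 0.08 (SE). It rested on 111 and 114 reads with carfilzomib and on 943 and 938 with vehicle, and the libraries within a group were close to each other. Itgb1bp1, which encodes ICAP1, a protein that binds the beta 1 tail and competes with talin, is named alike but is no relative in sequence; it rose to 74.9 ± 2.34 CPM with carfilzomib, against 39.1 ± 0.02 CPM with vehicle (SD, n = 2), a log2 fold change of 0.94 ± 0.06 (SE) with an edgeR adjusted p of 5.49e-09. Itgb1bp1 had fractional counts.

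The start regions of Lims2 and Itgb1bp2 are shown because these genes moved most. For comparison, the upstream start of Lims1 and the start of Ilk are shown, 2 genes that moved little. The downstream start of Lims1, which holds 4 CG dinucleotides, is not shown. RefSeq windows of 300 bases on build GRCr8, from 250 bases before to 50 after an annotated start, were found for 7 of the 10 genes, with 2 starts each for Lims1 and Lims2. The files do not show which start these cells used. Capitals mark CG dinucleotides.
Lims2, the upstream start, chr18:23827914-23828213, plus strand: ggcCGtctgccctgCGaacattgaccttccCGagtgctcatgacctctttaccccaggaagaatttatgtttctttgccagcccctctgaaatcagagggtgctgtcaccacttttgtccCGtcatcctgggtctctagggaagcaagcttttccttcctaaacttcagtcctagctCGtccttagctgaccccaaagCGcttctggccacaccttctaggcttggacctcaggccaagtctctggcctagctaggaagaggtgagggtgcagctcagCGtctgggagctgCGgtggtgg
Lims2, the downstream start, chr18:23837454-23837753, plus strand: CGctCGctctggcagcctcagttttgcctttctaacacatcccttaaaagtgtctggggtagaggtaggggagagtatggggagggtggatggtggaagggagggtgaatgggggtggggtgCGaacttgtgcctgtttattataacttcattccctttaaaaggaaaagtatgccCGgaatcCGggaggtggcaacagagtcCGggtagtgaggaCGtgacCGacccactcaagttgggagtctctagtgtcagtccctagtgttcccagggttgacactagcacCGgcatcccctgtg
Itgb1bp2, chrX:70612271-70612570, plus strand: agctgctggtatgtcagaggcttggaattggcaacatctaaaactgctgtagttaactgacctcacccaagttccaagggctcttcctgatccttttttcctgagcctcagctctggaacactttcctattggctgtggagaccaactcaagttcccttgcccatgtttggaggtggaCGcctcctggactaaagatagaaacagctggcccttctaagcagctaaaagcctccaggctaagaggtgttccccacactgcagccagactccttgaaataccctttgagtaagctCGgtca
Lims1, the upstream start, chr20:26852760-26853059, plus strand: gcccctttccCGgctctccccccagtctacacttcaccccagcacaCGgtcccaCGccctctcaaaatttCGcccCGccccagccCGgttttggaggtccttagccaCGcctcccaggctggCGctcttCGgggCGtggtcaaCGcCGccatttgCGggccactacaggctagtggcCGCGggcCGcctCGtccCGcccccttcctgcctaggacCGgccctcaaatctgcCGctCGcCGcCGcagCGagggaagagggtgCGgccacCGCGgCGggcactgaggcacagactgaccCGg
Ilk, chr1:169500471-169500770, plus strand: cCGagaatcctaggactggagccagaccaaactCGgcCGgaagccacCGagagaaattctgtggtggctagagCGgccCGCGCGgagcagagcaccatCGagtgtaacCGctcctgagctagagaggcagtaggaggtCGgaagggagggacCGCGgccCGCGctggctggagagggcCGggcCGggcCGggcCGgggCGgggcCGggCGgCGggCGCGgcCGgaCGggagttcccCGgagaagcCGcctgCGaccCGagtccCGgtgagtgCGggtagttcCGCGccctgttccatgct

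Itgb1bp2 holds 2 CG dinucleotides in its window and Lims2 holds 8 and 9, near the median of 7 over 33469 windows. Ilk and Itgb1 hold 35 each, Tln2 36, Parvb 26 and the upstream start of Lims1 29, while its downstream start holds 4. Of all windows, 22.3% hold as few CG as Itgb1bp2 or fewer, and 94.6% hold as few as Ilk or fewer. Of the genes that fell most, Itgb1bp2 thus held few CG, while Lims2 held a number near the median. Tln2, with the most CG, was also among the genes that were lower. The downstream start of Lims1, a gene that moved little, held fewer CG than either start of Lims2. Whether the count goes with the change was not tested. On both strands of the 9 windows there was no CArG box, the site of serum response factor (in 1.64% of all windows), and no MEF2 site (3.29%). Both were searched for as exact patterns only, so sites that vary from these would be missed. The M-CAT letters CATTCC of TEAD factors (14.2% of all windows) stood 101 bases before the downstream start of Lims2 and, on the other strand, in Itgb1. The letters AGATAA of GATA factors (11.6%) stood only in the downstream window of Lims1, and variants of these letters were not searched for. The letters TGACNNNGC of the antioxidant response element (12.1%) stood in Itgb1, in the upstream window of Lims1 and, after the start, in Itgb1bp2. No match overlapped another. Such matches describe letters and do not show binding.

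Ilk (gene ID 170922) encodes the kinase-like centre of the complex, which serves mainly as a scaffold. It had 307 and 309 CPM in the carfilzomib libraries and 344 and 358 CPM in the vehicle libraries, a log2 fold change of -0.19 ± 0.04 (SE). Parva (gene ID 57341), the broadly expressed alpha-parvin that ties ILK to actin, had 350 and 362 CPM with carfilzomib and 411 and 405 CPM with vehicle, a log2 fold change of -0.19 ± 0.04 (SE). These differences are small beside that of Lims2. Parvb (gene ID 362973), the beta-parvin abundant in heart and skeletal muscle, was the only 1 of the 10 that was higher. It had 94.0 and 91.4 CPM with carfilzomib and 79.4 and 82.9 CPM with vehicle, a log2 fold change of 0.19 ± 0.05 (SE). When carfilzomib replicate 1 was left out, Parvb had a log2 fold change of 0.17 and no longer passed the threshold. On the FPKM scale Parvb made up 25.7% and 24.4% of the parvin sum with carfilzomib and 19.5% and 20.5% with vehicle. The parvin sum was 190 and 194 FPKM with carfilzomib and 207 and 205 FPKM with vehicle, close to Ilk itself, at 190 and 191 FPKM with carfilzomib and 208 and 215 FPKM with vehicle. Within the complex, the PINCH sum was the part that differed most between the groups.

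**Figure D2:**
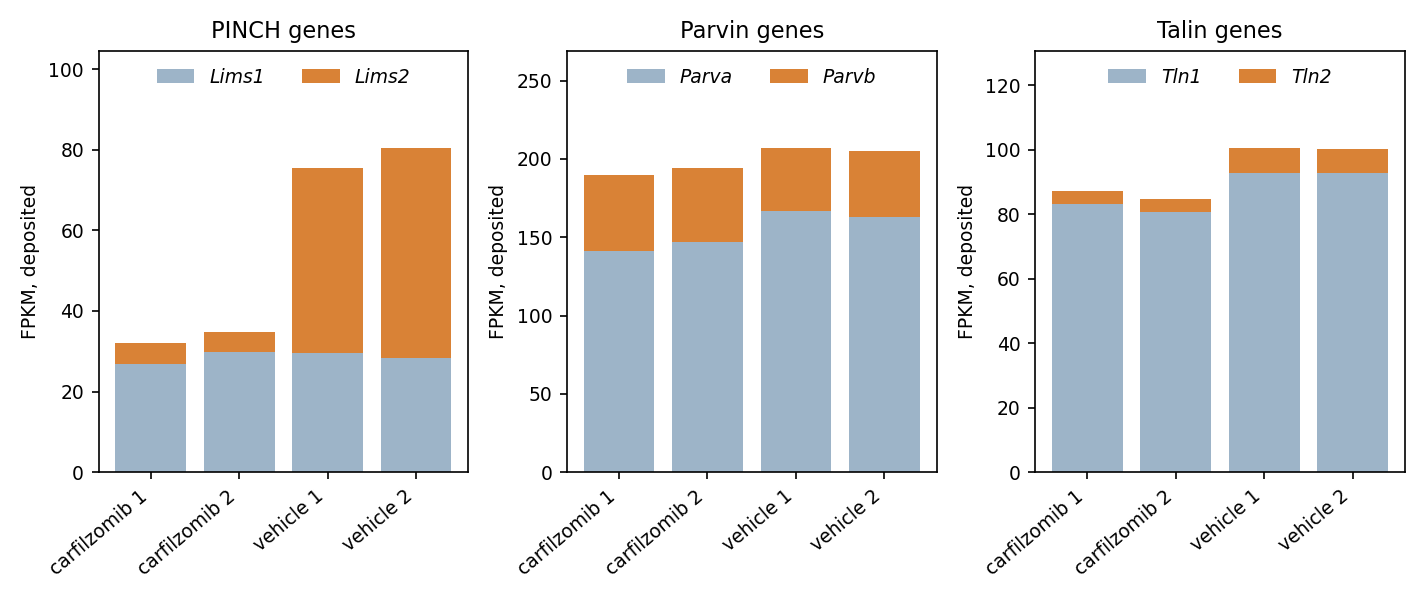
Deposited FPKM of the PINCH, parvin and talin gene pairs, stacked for each of the 2 carfilzomib and 2 vehicle libraries. The Lims2 part shrinks to about 5 FPKM with carfilzomib, while the parvin and talin stacks keep most of their height.

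The alpha 7 subunit and the beta 1 subunit were both lower, to different degrees. Itga7 (gene ID 81008), the laminin-binding alpha subunit of muscle, had 62.7 and 60.5 CPM in the carfilzomib libraries and 92.9 and 94.6 CPM in the vehicle libraries, a log2 fold change of -0.61 ± 0.06 (SE). Itgb1 (gene ID 24511), the beta subunit shared by most matrix-binding integrins and present in nearly all cell types, had 1761 and 1803 CPM with carfilzomib and 2124 and 1997 CPM with vehicle, a log2 fold change of -0.21 ± 0.04 (SE). Itgb1 was the only 1 of the 10 with fractional counts, and reads of its muscle splice form cannot be told from the others in a table of genes. Fermt2 (gene ID 289992), kindlin-2, the kindlin of heart muscle, had 311 and 311 CPM with carfilzomib and 331 and 332 CPM with vehicle, a log2 fold change of -0.09 ± 0.04 (SE) that did not pass the threshold. Tln2 (gene ID 315776), the talin enriched at costameres of mature muscle, had 50.9 and 47.6 CPM with carfilzomib and 93.7 and 88.0 CPM with vehicle, a log2 fold change of -0.88 ± 0.06 (SE).

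**Figure D3:**
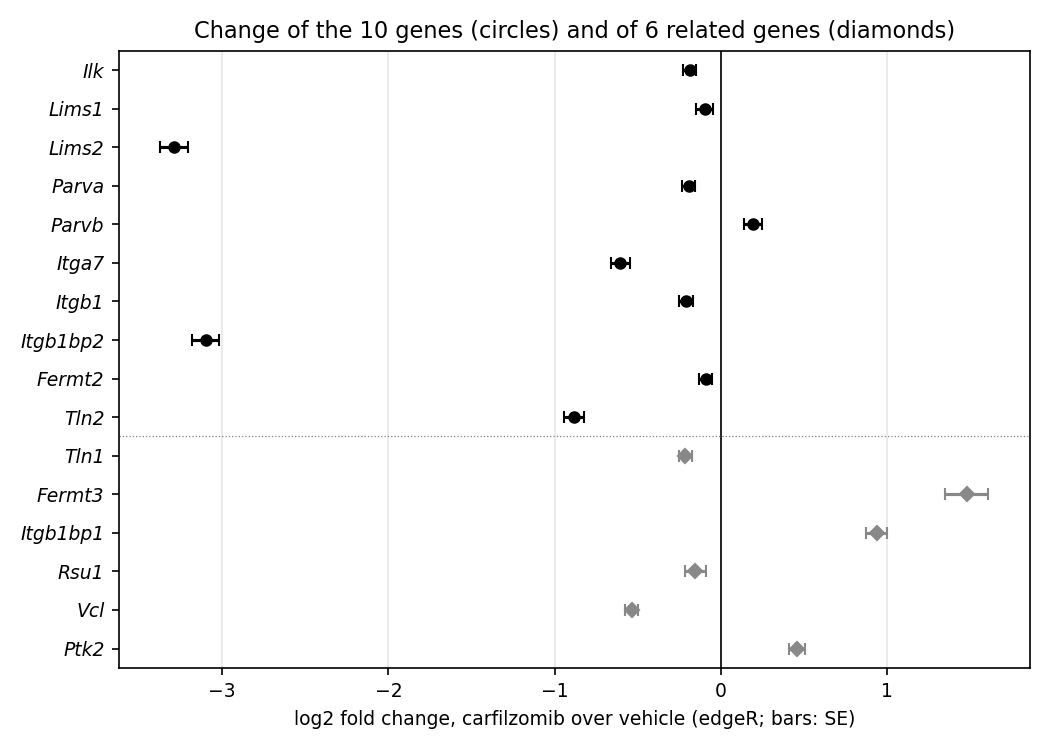
Log2 fold change of carfilzomib over vehicle with its SE for the 10 genes (circles) and for 6 related genes (diamonds), from the fit over all genes. Lims2 and Itgb1bp2 lie beyond -3, Tln2 and Itga7 between -1 and -0.5, and Parvb alone of the 10 lies above 0.

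Ordered by FPKM, the 10 genes in carfilzomib cells ran from Itgb1 (496 on average), Ilk (190), Parva (144) and Fermt2 (98.7) through Parvb (48.1), Lims1 (28.3) and Itga7 (15.9) to Lims2 (5.22), Itgb1bp2 (4.85) and Tln2 (4.13). In vehicle cells the order was Itgb1 (561), Ilk (212), Parva (165), Fermt2 (103), Lims2 (49.1), Parvb (41.2), Itgb1bp2 (40.6), Lims1 (28.9), Itga7 (23.6) and Tln2 (7.43). Only Parvb and Itgb1bp2 in vehicle cells were neighbours whose libraries overlapped. The top 4 places were the same in both groups, and Lims2 and Itgb1bp2 moved behind Lims1 and Itga7.

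Of relatives and binding partners of the 10 genes outside the set, Tln1, talin-1, the form found in all cells, fell to 686 ± 14.4 CPM with carfilzomib, against 796 ± 1.84 CPM with vehicle (SD, n = 2), a log2 fold change of -0.21 ± 0.04 (SE) with an edgeR adjusted p of 2.06e-04. Tln2 was 4.88% and 4.71% of the talin FPKM with carfilzomib and 7.63% and 7.18% with vehicle. Fermt3, the kindlin of blood cells, rose to 18.9 ± 2.34 CPM with carfilzomib, against 6.78 ± 1.05 CPM with vehicle, a log2 fold change of 1.48 ± 0.13 (SE) with an edgeR adjusted p of 1.68e-07. All 5 macrophage markers tested fell in the same libraries. Tln1 and Fermt3 had fractional counts. Rsu1, which binds PINCH1, had 84.6 ± 4.42 CPM with carfilzomib and 94.1 ± 7.39 CPM with vehicle and an edgeR adjusted p of 0.0467, which was lost in 5 of 11 alternative fits, among them DESeq2 (adjusted p 0.131) and those without carfilzomib replicate 2 (edgeR adjusted p 0.335) or vehicle replicate 2 (edgeR adjusted p 0.382). Parvg, the parvin of blood cells, had 6 and 1 reads with carfilzomib and 14 and 19 with vehicle, and its call was lost with DESeq2 (adjusted p 0.0618), without carfilzomib replicate 2 (edgeR adjusted p 0.075) and without vehicle replicate 2 (edgeR adjusted p 0.0953). Fermt1, the kindlin of epithelia, had 11 and 7 reads with carfilzomib and 6 and 8 with vehicle and was not tested.

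Of 16 other integrin alpha subunits tested, 8 fell and 5 rose, while 3 missed the threshold. The median log2 fold change was -0.33, and 81.2% were called beside 60.7% of all genes. Among subunits with a mean of at least 10 CPM, the larger falls were in Itga9, a receptor for tenascin and osteopontin, with a log2 fold change of -1.82 ± 0.04 (SE, edgeR adjusted p 1.07e-13), and in Itga8, found on fibroblasts and smooth muscle cells, at -1.29 ± 0.06 (SE, edgeR adjusted p 4.30e-11). Itgax, a leukocyte subunit, rose by 1.16 ± 0.11 (SE) on the log2 scale, and Itgav, which binds fibronectin and vitronectin, by 0.20 ± 0.04 (SE). Itgax had 14.6 CPM on average with carfilzomib and 6.53 CPM with vehicle. Leukocyte subunits with a mean under 10 CPM, named after their values were seen, went both ways. Itgam, Itga4 and Itgal fell, with log2 fold changes of -2.14, -1.45 and -0.99, and Itgae rose by 0.64. Itgal was near the floor, at 0.79 and 1.22 CPM with carfilzomib and 2.64 and 1.35 CPM with vehicle, so its fall is uncertain. Itgax, Itga9, Itgam and Itga4 had fractional counts. Per length, Itga5, Itgav and Itga3 stood above Itga7 in both groups. Itga7 ranked 4 of 18 alpha subunits with carfilzomib and 5 with vehicle, where Itga9 stood above it. Its share of the alpha subunit FPKM was 6.50% and 6.36% with carfilzomib and 8.30% and 8.46% with vehicle. Of 7 other beta subunits 4 fell and 0 rose, while 3 missed the threshold. The 57.1% called were near the 60.7% of all genes called in either direction, but all were lower, where 30.1% of all tested genes were called lower. The median was -0.69. Itgb2, the leukocyte subunit, had a log2 fold change of -1.67 ± 0.09 (SE, edgeR adjusted p 1.01e-09) and Itgb5, a partner of alpha V, of -0.71 ± 0.04 (SE, edgeR adjusted p 3.04e-09). Both fell, and both had fractional counts. Itgb5, next after Itgb1 in level, was at 48.3 and 51.5 FPKM with carfilzomib and 78.9 and 80.7 FPKM with vehicle.

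**Figure D4:**
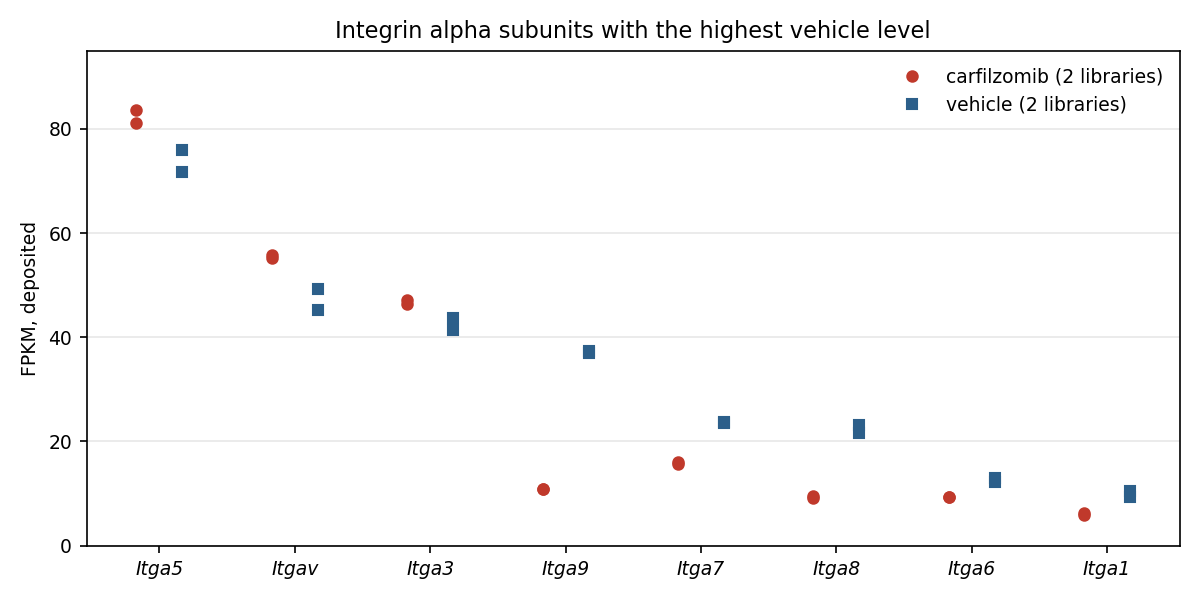
Deposited FPKM of the 8 integrin alpha subunits with the highest vehicle level, in the 2 carfilzomib libraries (circles) and the 2 vehicle libraries (squares). Itga5, Itgav and Itga3 lie slightly higher with carfilzomib, and Itga9, Itga7, Itga8, Itga6 and Itga1 lie lower.

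Outside the cell, 18 of 19 tested laminins and other integrin ligands fell and 1 rose, with a median of -0.58, where 30.1% of all tested genes fell and 30.6% rose. Spp1, osteopontin, was 6.79-fold lower, at 28.2 ± 2.26 CPM with carfilzomib and 192 ± 4.49 CPM with vehicle (SD, n = 2; edgeR adjusted p 2.97e-14). Lamb3, a chain of laminin-332, fell by 2.24 ± 0.08 (SE) on the log2 scale. The exception was Lama5, the alpha 5 laminin chain, which rose by 0.71 ± 0.04 (SE). Lama2, the alpha chain of muscle laminin and the ligand of alpha 7 beta 1 integrin, chosen after its values were seen, fell by 0.92 ± 0.05 (SE) on the log2 scale, with an edgeR adjusted p of 5.70e-10. Fibroblasts also make many of these proteins, and all 9 fibroblast markers fell, with a median of -0.79. The part of fibroblasts in the values of the ligands was not tested.

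Inside the cell, 17 of 24 adhesion adaptors fell and 3 rose, while 4 missed the threshold, so that 83.3% were called beside 60.7% of all genes. The median was -0.42. Vcl, vinculin, which joins talin to actin, fell to 614 ± 11.0 CPM with carfilzomib, against 891 ± 14.7 CPM with vehicle (SD, n = 2), a log2 fold change of -0.54 ± 0.04 (SE) with an edgeR adjusted p of 1.65e-08. Sorbs2, a Z-disc and adhesion adaptor, fell, with a log2 fold change of -1.26, as did Fblim1, migfilin, which binds kindlin and filamin and had fractional counts, with -1.19. Tes, testin, and Tns2, a tensin, rose by 0.95 and 0.35. Of 28 kinases and signalling genes 10 fell and 9 rose, while 9 missed the threshold, and the 67.9% called were near the 60.7% of all genes. The median was -0.05. Ptk2, focal adhesion kinase, rose to 160 ± 0.53 CPM with carfilzomib, against 117 ± 5.16 CPM with vehicle, a log2 fold change of 0.46 ± 0.05 (SE) with an edgeR adjusted p of 7.39e-07. Rictor, an mTORC2 subunit with fractional counts, rose by 0.44. Arhgef7, the exchange factor beta-PIX, and Src, a tyrosine kinase of adhesion sites, fell, with log2 fold changes of -0.70 and -0.50. Of 11 genes that switch integrins on or off 5 fell and 3 rose, while 3 missed the threshold; 72.7% were called beside 60.7% of all genes, and the median was -0.18. Sharpin, which holds integrins inactive, and Krit1, which binds ICAP1, rose by 0.53 and 0.33, and Rras, a GTPase that promotes integrin activity, and Apbb1ip, which recruits talin, fell, with log2 fold changes of -0.73 and -0.39.

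**Figure D5:**
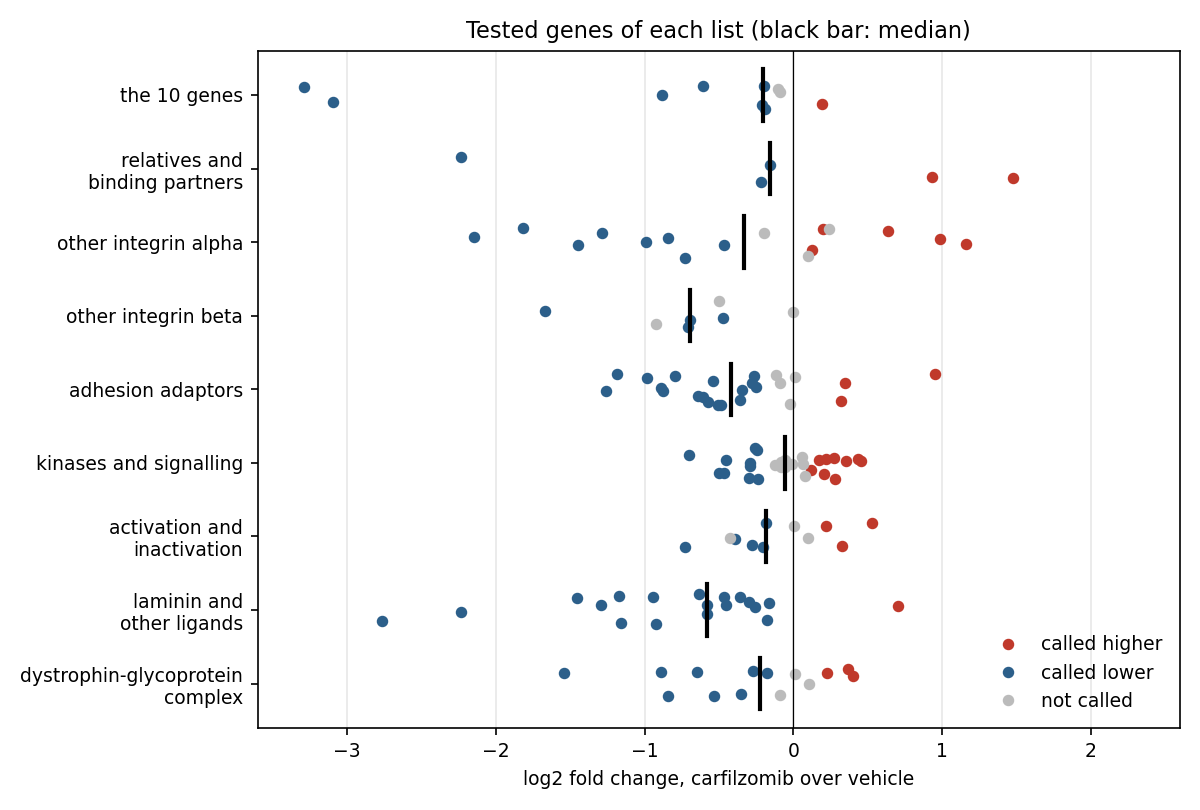
Log2 fold change of every tested gene of the 10 and of each related list, coloured by its call, with the median as a black bar. Laminins and other ligands lie almost all to the left of 0, while kinases and signalling genes lie on both sides.

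The dystrophin-glycoprotein complex is the other laminin receptor of the costamere. Of its 14 tested genes 8 fell and 3 rose, while 3 missed the threshold, and 78.6% were called beside 60.7% of all genes. The median was -0.22, beside -0.20 for the 10 genes. Sgca, alpha-sarcoglycan, a protein specific to striated muscle, had a log2 fold change of -1.54 ± 0.10 (SE), and Dtna, alpha-dystrobrevin, with fractional counts, a value of -0.89 ± 0.06 (SE). Sgcb, beta-sarcoglycan, rose by 0.40 ± 0.04 (SE), and Dmd, dystrophin, with fractional counts, by 0.37 ± 0.07 (SE). From the deposited FPKM, with a pseudocount of 0.1, the log2 difference of Dmd was 0.04. The difference between the members of both complexes was not tested.

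Over the 4 libraries, genes with a profile near to that of Lims2 included Tnni3, Fbxl22, Actc1 and Asb2, at Euclidean distances of 0.15 to 0.34 between centred log2 CPM. These 4 had fractional counts. Tnni3 and Actc1 are cardiomyocyte genes of troponin I and actin, with log2 fold changes of -3.18 and -2.90. Those nearest to Ilk were Rplp0, Hdhd5, Tspan9, Aldh4a1 and Gga2, at distances of 0.01 to 0.02. With 2 groups of 2 libraries, such nearness says little more than that the fold changes are of like size.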

How the data were processed

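RNA of 2 carfilzomib and 2 vehicle libraries was sequenced, with groups and numbers taken from the sample titles. The tables call the untreated side a control; since the labels have no control but vehicle, these columns were read as the vehicle libraries with the matching number. The authors deposited estimated counts, without normalisation. In each library 28.5% to 28.9% of genes had a count that was off a whole number by over 1e-06; these are called fractional counts, and such genes are less certain. The authors also deposited FPKM, scaled by gene length and library, per the file headers, used for comparing levels between genes. The authors' comparison table holds log2 fold changes and, from DESeq2, q-values and p-values, per the file headers. Per the submitters' processing notes, build Rnor_6.0 was used with HISAT, Bowtie2, FastQC 0.11.8, featureCounts 1.6.0, cutadapt 2.0, R 3.3.2 and DESeq2. Which tool did what, the strand setting and the source of the decimals: not given in the sources used here. Of the expression table, 10 columns were not used.

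Estimated counts were rounded to whole numbers and tested with edgeR 4.0.16 (filterByExpr with a minimum count of 10 and total of 15, TMM factors, robust quasi-likelihood fit, Benjamini-Hochberg threshold 0.05) in R 4.3.3. SE were derived from the log2 fold change and its F statistic; values after ± are otherwise SD over 2 libraries. Replicates differed by more than sampling noise (chi-square per degree of freedom 2.99 for carfilzomib, 3.32 for vehicle). Alternatives were DESeq2 1.42.0, limma-voom (limma 3.58.1), other scaling factors, other filters, a replicate block, leaving out each library, FPKM with pseudocounts of 0.1 and 1, and raw-count shares.

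The 10 genes and the gene lists were chosen with earlier results of these data known. Of 183 list entries, 181 were matched by symbol or RefSeq gene ID. Beyond the 10, the text names 6 relatives or partners (Tln1, Fermt1, Fermt3, Parvg, Itgb1bp1 and Rsu1), Vcl and Ptk2. It also names, per list, the 2 called genes with the largest change in each direction and a mean of at least 10 CPM. Lama2, Itgam, Itga4, Itgal and Itgae were added after their values were seen. Likeness used log2 of CPM plus 0.5 in genes with a mean of at least 10 CPM. One gene that this rule named is not reported here. Promoter windows are from RefSeq, build GRCr8.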

Additional observations from a re-analysis of the deposited data

How the results depend on the processing

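Of the 10 genes, 7 to 9 were called in the 11 alternative fits. No log2 fold change of the 41 named genes tested, the 10 included, changed sign in any of 532 alternative values. Lama2, Itgam, Itga4, Itgal and Itgae were not among the 41. Of the 450 values with a test, 9 lost a call, 8 of them of Rsu1 or Parvg and 1 of Parvb, and 1 gained it, Fermt2 with the stricter low-count filter (-0.10). Of the 82 values from FPKM, which have no test, 30 moved by more than the spread between replicates. The log2 fold change of Lims2 ranged from -3.37 to -3.01 and that of Itgb1bp2 from -3.12 to -2.83, with the smallest falls on the log2 of FPKM plus 1. All genes called numbered 6489 with DESeq2 and 8900 without the low-count filter. Of the 6 relatives or partners (Tln1, Fermt1, Fermt3, Parvg, Itgb1bp1 and Rsu1) 3 were called with DESeq2 and 3 to 5 when 1 library was left out, 3 of them without carfilzomib replicate 2 and without vehicle replicate 2, where Rsu1 and Parvg lost their call. From raw counts, not per length, the difference in share, carfilzomib minus vehicle, was -32.8 points for Lims2, 4.05 for Parvb, -3.54 for Tln2 and -1.33 for Itga7, against -47.2, 5.06, -2.61 and -1.95 points from FPKM; leaving out 1 library gave -49.3 to -45.1, 4.42 to 5.70, -2.84 to -2.38 and -2.04 to -1.87 points. With the replicate block 8229 genes were called in place of 8812, 8 of the 10 genes among them, and Rsu1 lost its call. The correlation of same-numbered deviations was -0.0023. With 2 pairs this value cannot decide whether same-numbered libraries share a culture, and the labels do not say. With 2 libraries a group, small changes such as those of Lims1, Fermt2 and Parvb are the least certain.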
